A study of Homo sapiens and Mus musculus with 24 samples.

Results

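This account covers 8 human lncRNAs that are named for, or widely studied in, cancer: HULC, PVT1, CRNDE, DANCR, CYTOR, LINC-PINT, GABPB1-AS1 and DLEU2. They were taken by name, not by their values, from the 58381 human genes counted, with each symbol matched to the Ensembl ID of the count tables through GENCODE 44. In the study, RNA recovered from the aqueous phase of a TRIzol extraction was sequenced from UV-irradiated cells (UPA-seq) and from nonirradiated cells (RNA-seq). HepG2, a human hepatocellular carcinoma line, and HEK293, a human embryonic kidney line whose culture is described under the name HEK293T, each gave 3 irradiated and 3 nonirradiated samples, 12 human samples of 24 in the series. Both arms of a line were grown and extracted alike and had rRNA removed before library construction, so that irradiation is the only stated difference between them. Each line stands for 1 cultured cell population, and although the study's legends speak of biological triplicates, the labels do not say what made the replicates separate. If they share a culture, the p-values measure only the spread between these samples.

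Long noncoding RNAs are transcripts that are processed much like mRNAs but carry no long reading frame, and many of them act in the nucleus or in the cytoplasm through the proteins they bind. UV light makes covalent bonds between RNA and proteins in direct contact, most readily at uridines, and a crosslinked RNA is drawn out of the aqueous phase during phenol-chloroform extraction. Crosslinks can also hinder reverse transcription. A gene with fewer reads after UV thus made up less of the sequenced RNA, and poorer recovery and poorer reverse transcription cannot be told apart in these counts. HULC was named for its high level in liver cancer, PVT1 lies downstream of the MYC oncogene, CRNDE was found in colorectal neoplasia, DANCR is a small nucleolar RNA host linked to undifferentiated cells, and CYTOR is studied as a regulator of the cytoskeleton and of proliferation. LINC-PINT is induced by p53, GABPB1-AS1 is transcribed antisense to GABPB1, and DLEU2 lies in the region deleted in lymphocytic leukaemia and hosts the microRNAs miR-15a and miR-16-1.

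The members differ widely in how much of their locus is counted as exon. On hg38, with the annotation the files used, DANCR (ENSG00000226950.6) has 2285 exon bases in 5 blocks on the plus strand at chr4:52712404-52720351. DLEU2 (ENSG00000231607.10) has 5103 in 15 blocks on the minus strand at chr13:49982552-50125720, PVT1 (ENSG00000249859.9) 5493 in 21 blocks on chromosome 8, and CRNDE (ENSG00000245694.9) 5846 in 18 blocks on the minus strand at chr16:54845189-54929189. LINC-PINT (ENSG00000231721.7) has 9030 exon bases on the minus strand at chr7:130938963-131110176, and CYTOR (ENSG00000222041.11) 17693 on the plus strand at chr2:87454781-87636740. GABPB1-AS1 (ENSG00000244879.6), on the plus strand at chr15:50354959-50372202, is counted almost without introns, with 17179 exon bases in a span of 17244. HULC (ENSG00000285219.1) has 48393 exon bases in 78 blocks of a gene that runs along the plus strand at chr6:8435568-9294133.

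The gene counted as HULC is much larger than the RNA usually meant by the name. RefSeq places HULC at chr6:8652269-8653856, and only 2.44% of the exon bases of the counted gene lie in that span. For GABPB1-AS1 the RefSeq span holds 19.1% of the exon bases, for CYTOR 27.5% and for CRNDE 33.3%, whereas for the other 4 members it holds 96.5% to 100%. All 8 are long compared with the 5197 lncRNAs tested in either line (median 1198 exon bases), at percentiles 70.4 to 99.9. Their uridine content of 26.0% to 30.3% was above the lncRNA median of 24.9% in all 8, at percentiles 58.8 to 87.9, and their GC content ranged from 40.0% to 49.4% (median of all lncRNAs 48.0%).

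Small genes annotated wholly inside an exon of HULC, PVT1, GABPB1-AS1 and DLEU2, and of CYTOR, whose MIR4435-1 had at most 2 counts, divide these long genes into parts whose reads can be compared within a library. Every read on such an inner gene is also counted for its host, so its share of the host's counts does not depend on how libraries are scaled. The sequences below are those on which the within-gene results turn, on the strand of the host and on hg38, with the inner gene in capitals and 30 flanking bases on each side in lower case. The HULC segment is ENSG00000276019 (chr6:8653558-8653797, plus strand), inside the RefSeq span of HULC. MIR4712 (chr15:50360329-50360410, plus strand) is shown because it lies in GABPB1-AS1 beyond the RefSeq end of the gene. ENSG00000274878 (chr13:50049591-50049663) and ENSG00000277066 (chr13:50045143-50045232), both given on the minus strand of DLEU2, behaved differently in HepG2 cells. Both are annotated on the plus strand, opposite to DLEU2. Without strand in the counting, their reads cannot be told apart from those of DLEU2.
HULC segment: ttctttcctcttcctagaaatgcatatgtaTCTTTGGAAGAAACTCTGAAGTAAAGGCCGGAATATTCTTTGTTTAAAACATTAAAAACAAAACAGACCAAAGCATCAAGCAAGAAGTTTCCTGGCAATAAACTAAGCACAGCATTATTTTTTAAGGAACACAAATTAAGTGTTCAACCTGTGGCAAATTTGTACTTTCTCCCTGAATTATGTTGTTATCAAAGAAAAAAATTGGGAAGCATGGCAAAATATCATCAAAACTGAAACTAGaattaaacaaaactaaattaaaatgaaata
MIR4712 in GABPB1-AS1: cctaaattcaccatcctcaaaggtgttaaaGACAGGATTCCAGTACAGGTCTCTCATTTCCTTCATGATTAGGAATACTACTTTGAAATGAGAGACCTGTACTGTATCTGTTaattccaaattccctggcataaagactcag
ENSG00000274878 in DLEU2: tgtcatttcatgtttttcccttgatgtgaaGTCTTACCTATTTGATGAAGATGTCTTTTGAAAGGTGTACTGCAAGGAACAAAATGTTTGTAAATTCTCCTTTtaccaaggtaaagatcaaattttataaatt
ENSG00000277066 in DLEU2: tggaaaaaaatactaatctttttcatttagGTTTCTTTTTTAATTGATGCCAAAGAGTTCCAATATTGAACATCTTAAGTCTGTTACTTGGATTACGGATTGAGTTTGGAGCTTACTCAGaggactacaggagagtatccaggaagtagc

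The uridine content of the capitals was 27.1% in the HULC segment, 34.1% in MIR4712, 38.4% in ENSG00000274878 and 40% in ENSG00000277066. The mature microRNAs cut from the DLEU2 transcript, from RefSeq on GRCh38.p14, share the seed that is written in capitals below (bases 2 to 8).
hsa-miR-15a-5p: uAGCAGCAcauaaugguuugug
hsa-miR-16-5p: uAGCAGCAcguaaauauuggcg

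HepG2 samples held 36573473 to 53511592 counts on genes and HEK293 samples 9444707 to 11188033, so that a member with the same share of reads had several times fewer counts in HEK293. The 10 genes with the most counts took 39.3% to 40.5% of irradiated and 19.3% to 23.1% of nonirradiated HepG2 libraries, and 21.0% to 26.8% against 9.43% to 10.7% in HEK293. All 7 hepatocyte markers tried (ALB, AFP, APOA1, APOB, TTR, SERPINA1 and FGB) were above 1 CPM in HepG2 and none was in HEK293. Their summed level was 47135.8 to 51811 CPM in nonirradiated and 27344.2 to 28263.5 CPM in irradiated HepG2 samples. The single markers went different ways. APOB stood at 24712.3 to 27394 CPM without and 4437.95 to 4640.05 CPM with irradiation, and AFP was also lower in every irradiated HepG2 sample. APOA1, TTR and SERPINA1 were higher in every irradiated HepG2 sample, and ALB and FGB overlapped. Among the other markers, the endothelial pair PECAM1 and VWF summed to 11.2 to 14.8 CPM without and 2.28 to 2.57 CPM with irradiation in HepG2. The fibroblast markers COL1A1, COL1A2 and DCN and the blood markers PTPRC and CD3E each summed, as a list, to at most 1.24 CPM in any human sample. The part of these differences in the results was not tested, and in bulk RNA fewer cells of a type and less RNA per cell cannot be told apart.

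Without irradiation, DANCR had the highest level per exon length in both lines, and HULC was among the lowest. Levels between genes are given as RPKM, counts on a gene divided by its exon length and by the total counts of the library. In HepG2 cells DANCR stood at 21.2 ± 2.88 RPKM (SD, n = 3), followed by GABPB1-AS1 at 6.51 ± 0.432, PVT1 at 4.32 ± 1.47, LINC-PINT at 3.72 ± 0.395 and DLEU2 at 2.57 ± 0.125. CYTOR (0.418 ± 0.0177 RPKM), HULC (0.0921 ± 0.00758) and CRNDE (0.0241 ± 0.00506) were the lowest. The samples of GABPB1-AS1 and PVT1 overlapped, as did those of PVT1 and LINC-PINT, and the other neighbours in this order were apart.

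In HEK293 cells DANCR stood at 22.3 ± 0.906 RPKM (SD, n = 3) and CRNDE, almost absent from HepG2, was second at 8.49 ± 2.08. DLEU2 (6.74 ± 0.394 RPKM), GABPB1-AS1 (3.70 ± 0.218), PVT1 (2.71 ± 0.188), LINC-PINT (1.12 ± 0.208), CYTOR (0.854 ± 0.173) and HULC (0.0858 ± 0.0102) followed. Here the samples of CRNDE and DLEU2 overlapped, and those of LINC-PINT and CYTOR. The low RPKM of HULC is spread over the 48393 exon bases of the counted gene.

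**Figure D1:**
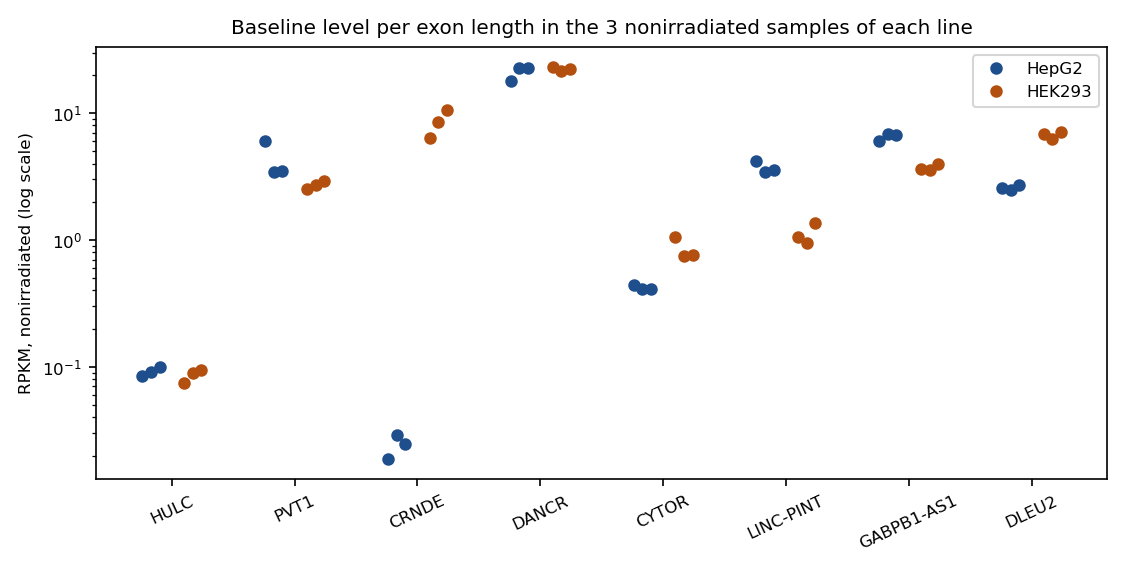
Level of the 8 lncRNAs in nonirradiated cells, in RPKM on a log axis, with 1 point for each of the 3 samples of HepG2 (blue) and HEK293 (orange). DANCR sits highest in both lines, at a mean of 21.2 and 22.3 RPKM, and CRNDE differs most, at a mean of 0.0241 RPKM in HepG2 and 8.49 in HEK293.

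The comparison of nonirradiated HepG2 with HEK293 cells asks at what level each line carries these lncRNAs. All 8 members passed the test (edgeR's quasi-likelihood F test, p-values adjusted over 23830 genes), 5 of them higher and 3 lower in HepG2. Of all genes tested 75.7% passed, 37.6% higher and 38.1% lower. CRNDE had 4, 9 and 6 counts in HepG2 and 353, 474 and 596 in HEK293. Its log2 difference was -7.94 (SE 0.264, adjusted p = 6.7e-10), so HEK293 cells carried a far higher level in every sample. LINC-PINT (log2 difference 2.18), GABPB1-AS1 (1.26) and PVT1 (1.12) were higher in HepG2, and DLEU2 (-0.95) and CYTOR (-0.59) lower, with adjusted p-values from 3.1e-07 to 0.0118. HULC (0.54, adjusted p = 0.0266) and DANCR (0.36, adjusted p = 0.0304) differed least. The HULC value is that of the whole counted gene. The HULC segment inside the RefSeq span had 43, 80 and 69 counts in HepG2 and 0, 2 and 1 in HEK293 (adjusted p = 5.8e-05), too few in HEK293 for a fold. With library sizes as the only scaling, HULC had a log2 difference of 0.10 (adjusted p = 0.669) and DANCR of -0.076 (adjusted p = 0.625), the order that its RPKM above also has, and leaving out single samples kept the call in 4 of 6 fits for HULC and 2 of 6 for DANCR. Line, sequencer and the version of the counting program cannot be told apart here.

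The comparison of irradiated with nonirradiated cells asks which of these lncRNAs gave fewer reads from the aqueous phase after UV. In HepG2 cells, HULC, DANCR and CYTOR rose relative to the bulk of the genes, LINC-PINT, GABPB1-AS1 and DLEU2 fell, PVT1 was not called, and CRNDE was below the filter. In HEK293 cells DANCR, PVT1 and CYTOR rose, GABPB1-AS1 fell, and the other 4 were not called. Over all genes tested, 40.7% fell and 38.1% rose in HepG2 (20117 genes) and 26.4% fell and 24.2% rose in HEK293 (20472 genes). Among lncRNAs alone the shares were 49.9% and 23.5% of 4143 in HepG2, and 25.9% and 14.5% of 3923 in HEK293. The median log2 difference of the members tested was 0.02 in HepG2 (7 members) and 0.17 in HEK293 (8 members), beside -0.63 and -0.28 for all lncRNAs and -0.08 for all genes in both lines. In the mouse cell types, where counterparts of 5 members were tested, 33% of genes fell and 28.9% rose in Neuro2a, and 25.9% fell and 26.1% rose in hippocampal culture.

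These differences are relative to the bulk. TMM scaling, which sets the bulk of genes near no change, gave mean factors of 1.57 and 0.636 to nonirradiated and irradiated HepG2 libraries and 1.31 and 0.768 to those of HEK293. With library sizes as the only scaling the median of all genes moved by -1.31 (log2) in HepG2 and -0.76 in HEK293, and the share of calls that were decreases went from 51.7% to 90.2% and from 52.1% to 87.8%. On that scale DANCR still rose in HepG2 (0.62) and HEK293 (0.48), and GABPB1-AS1 fell in both (-3.19 and -1.97). HULC in HepG2 (0.17, adjusted p = 0.227) and PVT1 in HEK293 (0.27, adjusted p = 0.23) kept a positive sign without a call. CYTOR turned into a called decrease in HepG2 (-0.67, adjusted p = 1.4e-04). In HEK293 it turned negative without a call (-0.20, adjusted p = 0.391). PVT1 in HepG2 (-1.28, adjusted p = 2.7e-04) and, in HEK293, HULC (-1.39, adjusted p = 0.0012), LINC-PINT (-1.30, adjusted p = 0.0024) and DLEU2 (-0.87, adjusted p = 0.0015) became called decreases. CRNDE in HEK293 turned negative without a call (-0.32, adjusted p = 0.192). The rank of the members among all genes hardly moved: in HepG2 89.4% of genes lay below HULC on either scale, and 95.8% and 95.7% below DANCR.

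**Figure D2:**
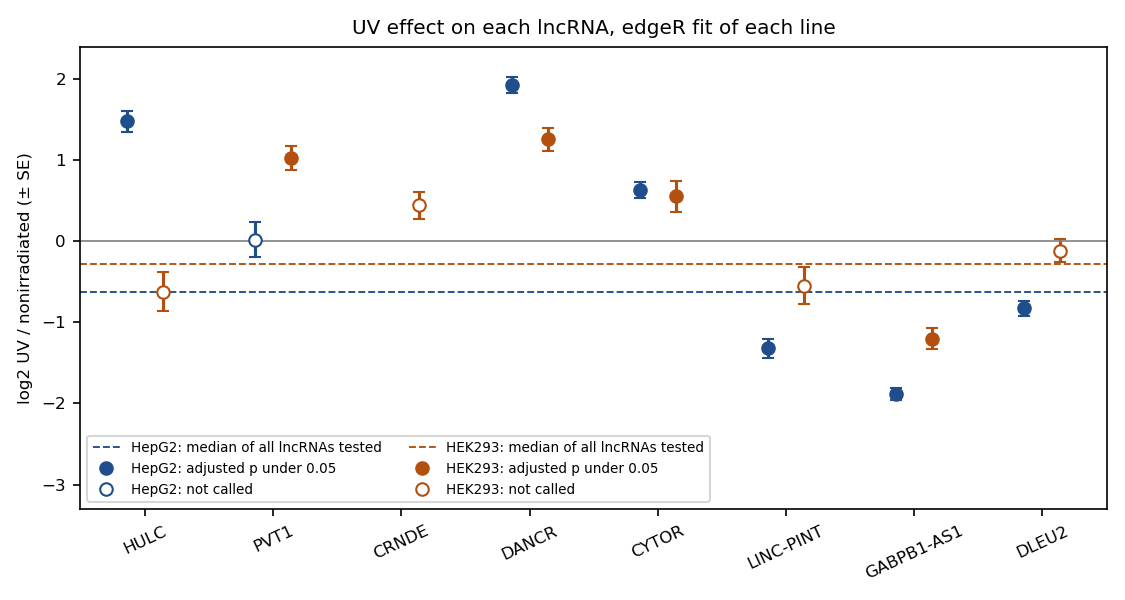
Log2 UV / nonirradiated of each lncRNA (points, with bars of 1 SE) in HepG2 (blue) and HEK293 (orange), filled where the adjusted p was under 0.05, with dashed lines at the median of all lncRNAs tested in each line (-0.63 and -0.28). DANCR, at 1.93 and 1.26, lies far above and GABPB1-AS1, at -1.88 and -1.20, far below in both lines, and CRNDE has no HepG2 point because it was below the filter.

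DANCR, the snoRNA host, had the largest increase of the members in both lines. TMM-scaled CPM (counts as a share of the TMM-scaled library) were 26.5, 32.9 and 33.0 in nonirradiated and 123, 115 and 113 in irradiated HepG2 samples. Every irradiated sample lay above every nonirradiated one, as for 39.6% of all genes in this line, and the log2 difference was 1.93 (SE 0.098, adjusted p = 4.2e-07). With 3 samples a group the exact permutation test of a single gene cannot go below p = 0.1, which DANCR reached. In HEK293 cells DANCR went from 42.5, 37.8 and 37.3 to 109, 85.6 and 86.8 TMM-scaled CPM, again without overlap (27.1% of all genes were higher in every irradiated sample). The log2 difference was 1.26 (SE 0.145, adjusted p = 1.6e-04).

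Within DANCR no small gene lies wholly inside an exon, and 271 of its exon bases are shared with the pseudogene ENSG00000248375, which had a log2 difference of 0.22 in HepG2 (adjusted p = 0.492) and was below the filter in HEK293. SNORA26, a small nucleolar RNA encoded in the DANCR locus, had 25 to 37 counts without and 21 to 41 with irradiation in HepG2, and a log2 difference of 1.09 (adjusted p = 0.0064). In HEK293 it had 8 to 15 and 8 to 19 counts and was not called (0.97, adjusted p = 0.106). The microRNA MIR4449 of the same locus was below the filter in both lines, with at most 24 counts.

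CYTOR rose in both lines on the TMM scale and turned negative in both with library sizes alone, as a called decrease in HepG2 only. In HepG2 cells it went from 5.05, 4.55 and 4.56 to 7.56, 7.41 and 7.08 TMM-scaled CPM, without overlap, a log2 difference of 0.64 (SE 0.099, adjusted p = 3.1e-04). In HEK293 cells it went from 14.9, 10.2 and 9.86 to 16.7, 17.3 and 17.4, where nonirradiated replicate 1 was well above the other two and the groups were still apart. The log2 difference there was 0.56 (SE 0.191, adjusted p = 0.0355), and only 2 of 6 fits without a single sample kept that call. Those fits did not pair the samples, and with the replicate number as a block the adjusted p was 8.1e-05. CYTOR has a near copy, MIR4435-2HG, and 14.4% of the 50-base words in the exons of CYTOR occur identically in that gene, so reads of the 2 genes are uncertain where they match. MIR4435-2HG itself rose in HepG2 (0.69, adjusted p = 0.0015) and had a log2 difference of 0.04 in HEK293 (adjusted p = 0.849).

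HULC behaved differently in the 2 lines. In HepG2 cells it had 150, 237 and 201 counts without and 294, 200 and 215 with irradiation, that is 2.67, 2.79 and 3.06 against 9.10, 7.56 and 7.08 TMM-scaled CPM. All irradiated samples were above all nonirradiated ones, with a log2 difference of 1.48 (SE 0.129, adjusted p = 7.8e-06). In HEK293 cells it had 34, 41 and 44 counts without and 15, 17 and 18 with irradiation, or 2.88, 3.32 and 3.34 against 2.25, 1.97 and 1.99 TMM-scaled CPM. These groups did not overlap either (32.1% of all genes were lower in every irradiated HEK293 sample), and the log2 difference of -0.62 (SE 0.239) missed the threshold at an adjusted p of 0.055. With the replicate number as a block, which paired the HEK293 samples, the adjusted p was 0.0284.

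A single short segment held a large part of the HULC reads in HepG2 and almost none in HEK293. The HULC segment whose sequence is printed above covers 240 bases, 0.496% of the exon bases, and held 43, 80 and 69 of the HULC counts of nonirradiated HepG2 samples, or 28.7%, 33.8% and 34.3%. In irradiated HepG2 samples it held 162, 115 and 127 counts, or 55.1%, 57.5% and 59.1%, so its share was higher in every irradiated sample (exact permutation p = 0.1, the smallest possible). In HEK293 it held 0, 2 and 1 counts without and 1, 1 and 0 with irradiation. Taken as a gene of its own, the segment rose in HepG2 by 2.29 on the log2 scale (SE 0.168, adjusted p = 2.6e-06), and it kept a positive difference of 0.98 with library sizes alone. The RefSeq span holds 1180 exon bases of the counted gene, the segment among them, so the rest includes part of RefSeq HULC. The rest of the gene went from 1.92 ± 0.0823 to 3.40 ± 0.616 TMM-scaled CPM in HepG2 (SD, n = 3 each) and from 3.10 ± 0.198 to 1.98 ± 0.122 in HEK293. On the TMM scale it too went up in one line and down in the other. Its HepG2 rise (log2 ratio of means 0.83) was smaller in size than the -1.31 by which library sizes alone moved the median gene. With library sizes alone the rest of the gene thus did not rise in HepG2. SLC35B3, a coding gene that shares 44 exon bases with HULC at its start, rose in HepG2 (0.49, adjusted p = 0.0011) and was not called in HEK293 (-0.25, adjusted p = 0.379).

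PVT1 was decided by 1 library in HepG2. Its level there was 21.5, 11.9 and 12.2 TMM-scaled CPM without and 14.9, 14.7 and 16.4 with irradiation. Nonirradiated replicate 1 lay above every other sample, the groups overlapped, and the log2 difference was 0.02 (SE 0.213, adjusted p = 0.93). Without that library it was 0.28 (adjusted p = 3.6e-04), and without nonirradiated replicate 2 it was -0.15 (adjusted p = 0.502). The fit without replicate 1 also gave other members far smaller adjusted p-values, such as 5.8e-43 for DANCR (4.2e-07 with all samples). In HEK293 cells PVT1 went from 11.1, 11.5 and 11.7 to 21.3, 22.0 and 26.6 TMM-scaled CPM, without overlap, a log2 difference of 1.03 (SE 0.151, adjusted p = 5.6e-04).

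Inside PVT1, the 95-base gene ENSG00000278324, annotated as a miscellaneous RNA, took a larger share of the PVT1 counts after UV in both lines. Its share rose from 5.88%, 6.73% and 6.85% to 15.6%, 19% and 14.7% in HepG2 and from 19.1%, 18.3% and 18.2% to 31.7%, 33.3% and 33.8% in HEK293. The groups were apart in each line (exact permutation p = 0.1 in both, the smallest possible). The other inner genes of PVT1 differed from each other. MIR1204, the first of the PVT1 microRNAs, held 21, 36 and 28 counts without and 6, 2 and 4 with irradiation in HepG2, and its share was lower in every irradiated sample of HepG2 and, on few counts, of HEK293. The 194-base ENSG00000276443 at the start of the gene held 6.46% ± 0.440 of the PVT1 counts without and 8.36% ± 0.790 with irradiation in HepG2 (SD, n = 3 each). Its share was higher in every irradiated HepG2 sample (exact permutation p = 0.1) and overlapped in HEK293. MIR1205, MIR1206, MIR1207 and MIR1208 were below the filter in both lines, with at most 21 counts in any sample.

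CRNDE could be followed in HEK293 only. Its level there was 29.9, 38.4 and 45.2 TMM-scaled CPM without and 46.1, 52.4 and 56.1 with irradiation. All 3 irradiated samples lay above all 3 nonirradiated ones, but the 2 closest samples were less than 1 CPM apart, and the log2 difference was 0.45 (SE 0.17, adjusted p = 0.053). The samples with the same replicate number deviated together, and with the number as a block the adjusted p was 8.4e-06. The limit given for the block p-value of CYTOR applies here too. In HepG2 cells CRNDE had 3, 2 and 1 counts after UV. CRNDE was the only member without an exon base shared with another gene.

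**Figure D3:**
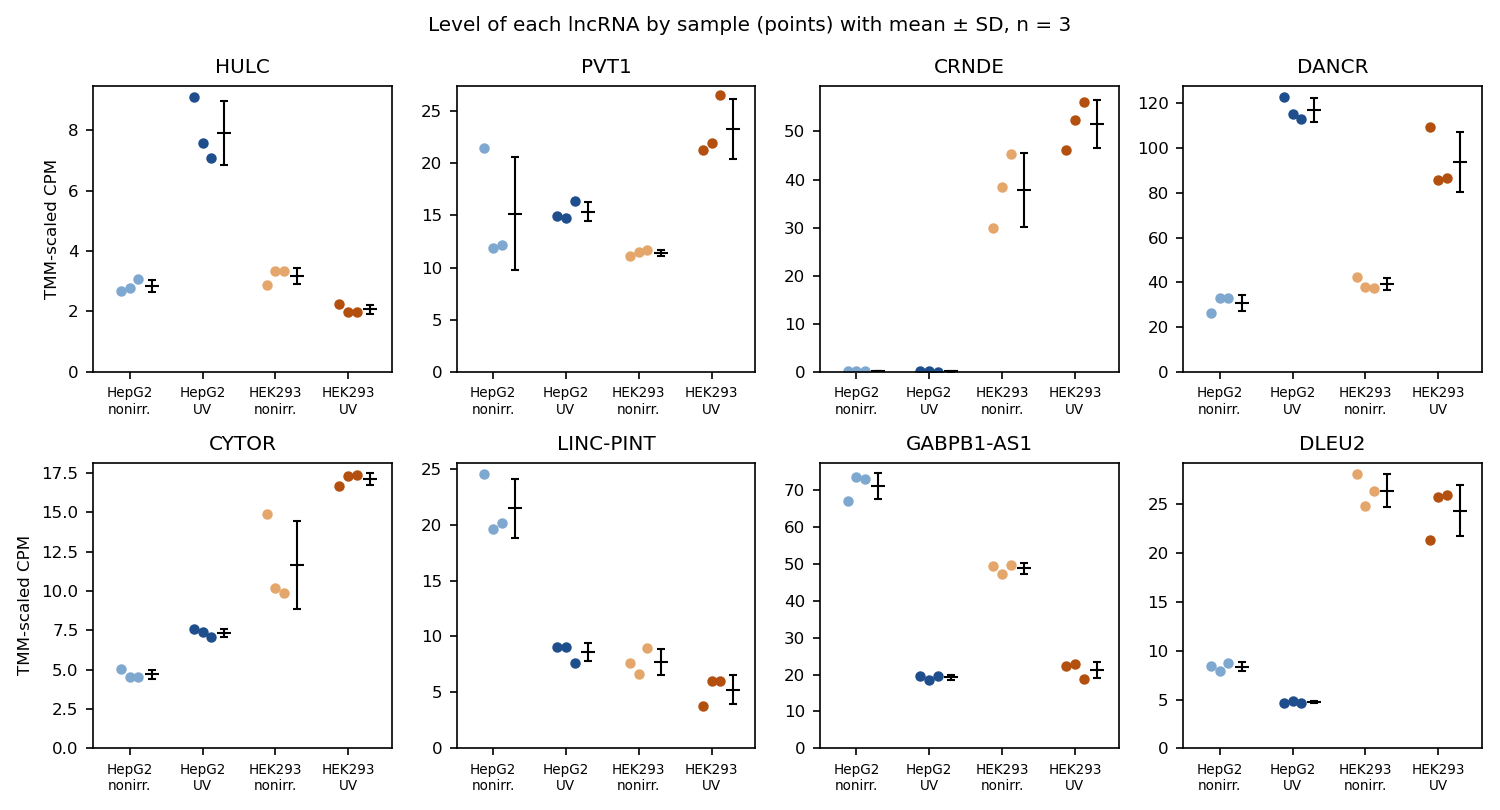
TMM-scaled CPM of each lncRNA in each human sample (points) with the mean ± SD of the 3 samples of a group beside them, on a linear axis from 0 for each gene. Irradiated samples of DANCR and CYTOR lie above the nonirradiated samples in both lines, those of GABPB1-AS1 and LINC-PINT below, and the HepG2 points of PVT1 overlap, with nonirradiated replicate 1 at 21.5. With library sizes alone CYTOR turns negative in both lines.

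GABPB1-AS1 had the largest decrease of the members in both lines. In HepG2 cells it went from 67.1, 73.5 and 72.9 to 19.7, 18.5 and 19.6 TMM-scaled CPM, and every irradiated sample was lower, as for 42.8% of all genes. The log2 difference was -1.88 (SE 0.072, adjusted p = 2.6e-07). In HEK293 cells it went from 49.5, 47.2 and 49.8 to 22.4, 22.8 and 18.7, also apart, a log2 difference of -1.20 (SE 0.133, adjusted p = 1.3e-04). GABPB1, which encodes a subunit of a GA-binding transcription factor and shares 424 exon bases with GABPB1-AS1, moved the other way in HepG2, where it rose (0.44, adjusted p = 0.002), and had a log2 difference of -0.12 in HEK293 (adjusted p = 0.424).

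Both inner genes of GABPB1-AS1 had few reads left after UV. ENSG00000259715, an antisense lncRNA of 612 exon bases, held 104, 174 and 124 counts in nonirradiated and 4, 0 and 2 in irradiated HepG2 samples. Its share of the GABPB1-AS1 counts went from 2.71% ± 0.107 to 0.321% ± 0.314 (SD, n = 3 each). In HEK293 it held 19, 24 and 27 counts without and 0, 1 and 0 with irradiation, and MIR4712, whose hairpin is printed above, held 34, 45 and 58 against 1, 0 and 2 counts in HepG2. The shares of both were lower in every irradiated HepG2 sample, and that of ENSG00000259715 also in HEK293, while that of MIR4712 overlapped in HEK293, where it held 6, 8 and 10 against 2, 1 and 0 counts. Without strand in the counting, reads of GABPB1-AS1 and of an antisense partner cannot be told apart.

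LINC-PINT, the p53-induced transcript, fell in HepG2 cells from 24.5, 19.7 and 20.2 to 9.10, 9.04 and 7.64 TMM-scaled CPM. The groups were far apart, with a log2 difference of -1.32 (SE 0.116, adjusted p = 8.1e-06). In HEK293 cells the level was 7.62, 6.64 and 8.95 without and 3.75, 6.04 and 5.98 with irradiation. The groups did not overlap, but the log2 difference of -0.54 (SE 0.234) had an adjusted p of 0.0797, and 0.0059 with the replicate block. Of its exon bases 29.6% are shared with other genes, the largest share of the 8 members. ENSG00000285106, which holds 1958 of them, fell in HepG2 (-1.51, adjusted p = 2.4e-05) and had a log2 difference of -0.01 in HEK293 (adjusted p = 0.991). ENSG00000273319, on the opposite strand, fell in both lines, by 2.70 on the log2 scale in HepG2 (adjusted p = 7.9e-06) and in HEK293 from 8 to 12 counts to at most 1 (adjusted p = 0.0041).

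DLEU2 fell in HepG2 cells and was not called in HEK293. In HepG2 it went from 8.46, 7.91 and 8.74 to 4.68, 4.84 and 4.64 TMM-scaled CPM, without overlap, a log2 difference of -0.83 (SE 0.096, adjusted p = 4.9e-05). In HEK293 cells it stood at 28.1, 24.8 and 26.3 without and 21.3, 25.8 and 25.9 with irradiation. These samples overlapped, and the log2 difference was -0.11 (SE 0.14, adjusted p = 0.518).

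Most inner genes of DLEU2 had a larger mean share after UV in HepG2, and ENSG00000277066 had a smaller one on few counts. The share of ENSG00000277752 went from 5.27% ± 0.741 to 8.73% ± 2.89 (SD, n = 3 each), higher in every irradiated sample. ENSG00000275559 (mean 3.67% to 7.92%) and ENSG00000277913 (3.89% to 6.27%) overlapped, and in HEK293 all inner genes of DLEU2 overlapped. ENSG00000274878, whose sequence is printed above, took 2.52%, 4.61% and 4.35% of the DLEU2 counts without and 11.9%, 14.1% and 11.3% with irradiation in HepG2, and 9.34%, 10.5% and 7.20% against 13.4%, 7.66% and 7.26% in HEK293. It was higher in every irradiated sample of HepG2 only, and overlapped in HEK293, with 12 to 32 counts behind each of these shares. ENSG00000277066, also printed above, held 4, 10 and 5 counts without irradiation in HepG2 and none of 420 DLEU2 counts with it, which allows a share of up to 0.714%. It held 7, 11 and 14 against 6, 5 and 6 counts in HEK293. The host of miR-15a and miR-16-1 could not be followed through the microRNAs themselves, since MIR15A had at most 6 counts and MIR16-1 at most 3 in any human sample. Over all members, 10 inner genes had a mean of at least 10 counts in nonirradiated HepG2 cells, and their share was higher in every irradiated sample for 5, lower for 3 and overlapped for 2. Among all 787 such pairs of an inner gene and its host, 19.1% were higher and 39.1% lower. In HEK293 1 of 8 was higher, 1 lower and 6 overlapped, beside 13.8% higher and 30.4% lower among 588 pairs. The bound of 0.714% pools the irradiated HepG2 samples and covers counting error only, and reads carried no molecular identifiers. The SDs of the shares are spreads between samples.

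**Figure D4:**
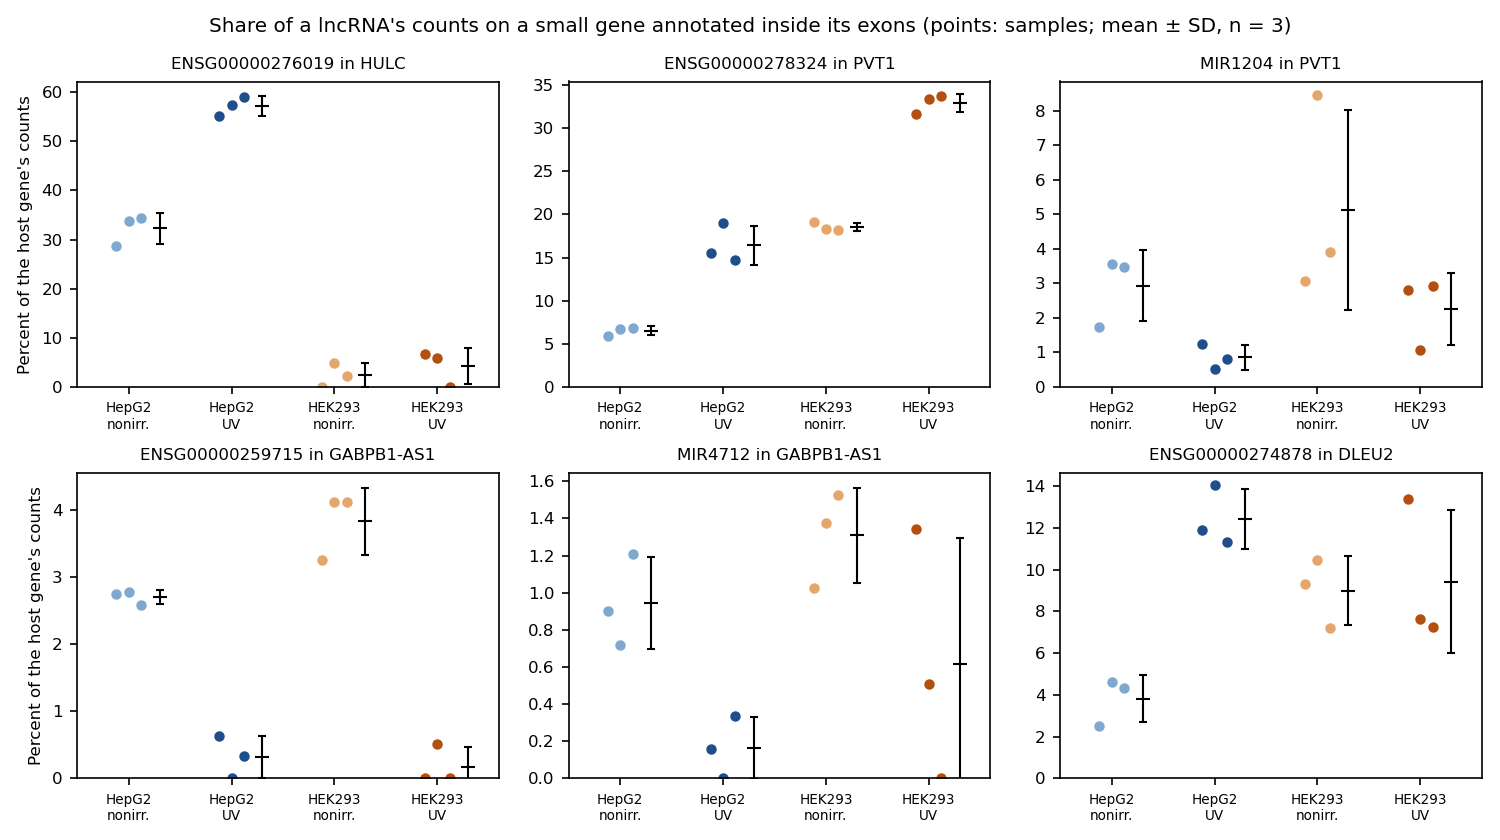
Percent of the counts of HULC, PVT1, GABPB1-AS1 and DLEU2 that fell on 6 small genes inside their exons, for each human sample (points) with mean ± SD of the 3 samples of a group, on axes from 0. The HULC segment goes from 28.7% to 34.3% without to 55.1% to 59.1% with irradiation in HepG2, while ENSG00000259715 in GABPB1-AS1 goes from 2.59% to 2.78% to at most 0.628%.

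Whether the UV effect differed between the lines was tested as the interaction of line and irradiation over 16759 genes. Of the 7 members tested, 5 passed, beside 7.94% of all genes (3.1% with a positive and 4.85% with a negative difference). HULC had the one positive difference, HepG2 minus HEK293, of 2.00 (SE 0.245, adjusted p = 2.6e-04). GABPB1-AS1 (-0.79, SE 0.142, adjusted p = 0.0042) and DLEU2 (-0.82, SE 0.162, adjusted p = 0.0077) were more negative in HepG2. PVT1 (-1.11, adjusted p = 0.0275) and LINC-PINT (-0.88, adjusted p = 0.0455) passed too, but when single samples were left out the call was kept in only 5 of 12 fits for PVT1 and 2 of 12 for LINC-PINT. DANCR had a difference of 0.56 (SE 0.171, adjusted p = 0.0606, and 0.0088 with the replicate block), and CYTOR of -0.02 (SE 0.206, adjusted p = 0.959). The lines were sequenced on different machines and at different depths, and the part of that in these differences cannot be told apart from the line.

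The neighbours of the members, 9 genes that lie beside or opposite them or are a near copy, moved in part the same way as the members and in part the other way. In HepG2 4 of the 8 tested fell and 3 rose, with a median log2 difference of -0.27, beside 40.7% and 38.1% of all genes. In HEK293 4 of the 9 fell and none rose, with a median of -0.15, beside 26.4% and 24.2%. Whether a neighbour moved with its member was not tested. That count of 0 increases in edgeR's test was also 0 at an unadjusted p under 0.05 and 0 in DESeq2's test. With the replicate block in edgeR's test, however, DLEU1 was called as increased in HEK293 (0.34, adjusted p = 0.0076). With library sizes alone MYC, GABPB1 and MIR4435-2HG turned negative in HepG2, and IRX5, DLEU1 and MIR4435-2HG in HEK293. All of these but IRX5 were then called as decreased. KCNRG, a regulator of potassium channels in the DLEU2 locus, fell most, by 2.44 on the log2 scale in HepG2 (adjusted p = 4.9e-05) and by 2.89 in HEK293 (adjusted p = 1.5e-04). USP46, a deubiquitinase gene beside DANCR, fell in both lines (-0.78 and -0.91, adjusted p = 1.0e-04 and 8.2e-04) while DANCR rose. MKLN1, the coding gene beside LINC-PINT, fell in both (-0.78 and -1.14, adjusted p = 4.4e-06 and 1.9e-04).

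MYC, the oncogene upstream of PVT1, rose in HepG2 (0.48, adjusted p = 3.3e-04) and had a log2 difference of -0.15 in HEK293 (adjusted p = 0.458), where PVT1 rose. TRIM13, a ubiquitin ligase gene that shares 346 exon bases with DLEU2, was not called in HepG2 (-0.14, adjusted p = 0.116) and fell in HEK293 (-0.82, adjusted p = 0.0131). DLEU1, the lncRNA next to DLEU2, fell in HepG2 (-0.41, adjusted p = 0.0218) and had 0.33 in HEK293 (adjusted p = 0.0917, and 0.0076 with the replicate block). IRX5, a homeobox gene beside CRNDE, had no counts in HepG2 and 0.13 in HEK293 (adjusted p = 0.775).

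**Figure D5:**
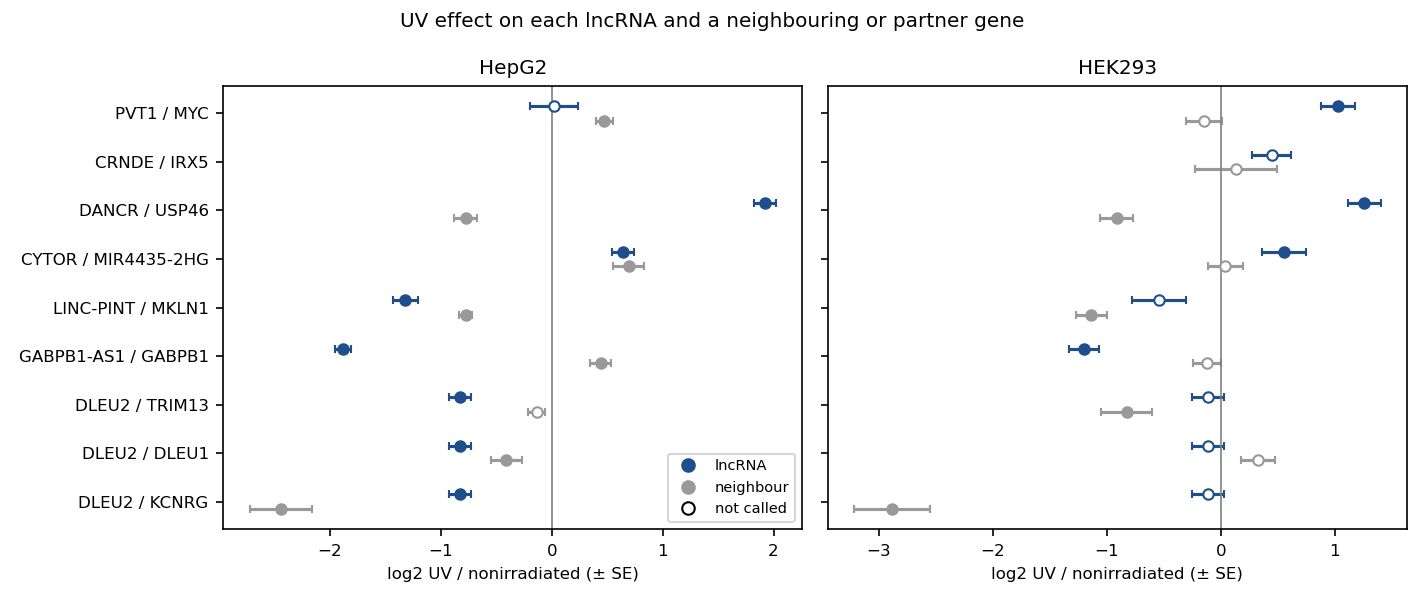
Log2 UV / nonirradiated (points, with bars of 1 SE) of each lncRNA (blue) and of a neighbouring or partner gene (grey) in HepG2 (left) and HEK293 (right), open where not called. DANCR and USP46 lie on opposite sides of 0 in both lines, at 1.93 and -0.78 in HepG2, and KCNRG is the most negative at -2.44 and -2.89.

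A second list of 20 other cancer-associated lncRNAs, of which 19 were found in the files, gives a background of the same kind. In HepG2 8 of the 14 tested fell and 4 rose, with a median log2 difference of -0.44, and in HEK293 3 of 11 fell and 2 rose, with a median of -0.47. Of all lncRNAs tested, 49.9% fell and 23.5% rose in HepG2, and 25.9% fell and 14.5% rose in HEK293. Over all genes the shares were 40.7% and 38.1% in HepG2, and 26.4% and 24.2% in HEK293. The snoRNA hosts ZFAS1 (1.87 in HepG2 and 1.97 in HEK293) and GAS5 (1.64 and 1.66) rose most in both lines, by amounts near that of DANCR in HepG2, at adjusted p-values of at most 1.8e-04. MEG3 (-2.50, adjusted p = 3.5e-04) fell in HepG2 by more than any member, and CASC2 (-1.12, adjusted p = 0.0024) and FTX (-0.97, adjusted p = 5.9e-04) fell most in HEK293. Of the 9 small RNA genes of the member loci, 2 were tested in each line, SNORA26 above and MIR1204, which fell in HepG2 (-1.59, adjusted p = 0.0073) and had -0.14 in HEK293 (adjusted p = 0.863).

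Across the 12 human samples, the genes with the level pattern most like each member, among 16758 other genes, were looked up as a description, since the samples share 2 lines, 2 treatments and their depth. DANCR was most like RPL14, a ribosomal protein gene (Pearson's r = 0.998, n = 12), and MED8, a Mediator subunit gene (0.998). HULC was most like GABBR1 (0.981) and LIME1 (0.978), PVT1 like ANKRD13D (0.965) and SFI1 (0.908), and CYTOR like the pseudogene GGNBP1 (0.978) and METTL25 (0.976). LINC-PINT was most like the lncRNA LRIG2-DT (0.988) and ENSG00000274897 (0.988), GABPB1-AS1 like the lncRNA ENSG00000260482 (0.987) and the DNA damage kinase gene ATM (0.987), and DLEU2 like GREB1L (0.993) and GJA1 (0.992).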

How the data were processed

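RNA of 24 samples was sequenced after Ribo-Zero depletion. The labels name a stranded TruSeq kit and the methods TruSeq v2. The authors mapped reads with TopHat2 2.1.1 to hg38 or mm10 (submitters' processing notes) and deposited raw counts per gene from featureCounts (1.5.3 for HepG2, 1.6.1 otherwise, per the file headers) on GENCODE 28 or M17 exons. A read on several genes was counted for each, and neither strand nor multiple mapping is set in the commands. From these counts, genes with a mean of at least 0.5 CPM in nonirradiated samples were compared within each line with edgeR 4.0.16 in R 4.3.3 (TMM, quasi-likelihood test, Benjamini-Hochberg adjustment over all genes tested, called at an adjusted p under 0.05). The SE is the log2 difference divided by the square root of F. The interaction fit used genes above the filter in both lines, and the baseline fit genes above it in either. Single values were compared by two-sided exact permutation. Lengths are unions of the files' exons, and sequences were read with pysam 0.24.0. Figures used matplotlib 3.10.9.

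The members, lists and tests were chosen with earlier results of these data known. Named genes are all members, genes sharing their exon bases, neighbours, small RNA genes of their loci, the 2 lowest and 2 highest called genes of a further list in each line, the 2 genes most alike, and mouse counterparts. One gene of the further list is not reported here by name. Inner genes were chosen by position. Same-numbered samples deviated together in HEK293 (r 0.368 to 0.654) and Neuro2a (0.104 to 0.290), where the number was taken to pair them. Pairs with different numbers had r of -0.521 to 0.280 in HEK293 and -0.219 to 0.0992 in Neuro2a. In HEK293, replicates 2 and 3 also deviated together across arms (0.262 and 0.280). In HepG2 same-numbered samples did not (-0.0244 to 0.00704). In HippCulture their r was smaller (0.0567 to 0.137) but above that of every pair with different numbers (-0.108 to 0.025). The number was not taken to pair the HippCulture samples. Alternatives were DESeq2 1.42.0 (size factors, test), library sizes alone, no filter, at least 10 counts in every sample, a replicate block and leaving out each sample. The code was tested on simulated counts.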

Additional observations from a re-analysis of the deposited data

Results flagged for a closer look

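The UV effect of 5 members differed between the lines by the interaction test of edgeR. The log2 difference, HepG2 minus HEK293, was 2.00 for HULC, -1.11 for PVT1, -0.88 for LINC-PINT, -0.79 for GABPB1-AS1 and -0.82 for DLEU2. For HULC the signs were opposite (1.48 and -0.62), but the HEK293 value was not called (adjusted p = 0.055). With library sizes alone the HepG2 value was 0.17 and not called (adjusted p = 0.227). The HULC segment, which held a large part of the HepG2 reads, had at most 2 counts in any HEK293 sample. For GABPB1-AS1 both lines were negative and HepG2 more so. PVT1 and LINC-PINT did not keep the call in 7 and 10 of the 12 fits that left out a sample.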

How the results depend on the processing

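Library sizes as the only scaling moved most counts of calls. With it 15838 genes decreased and 1722 increased in HepG2. HEK293 had 11188 decreases and 1553 increases, Neuro2a 12867 and 1056, and HippCulture 9151 and 1318, and in the interaction 2895 were lower and 120 higher in HepG2. The same scaling reversed the log2 difference of PVT1 (-1.28), CYTOR (-0.67), MYC (-0.83), GABPB1 (-0.87) and MIR4435-2HG (-0.61) in HepG2. In HEK293 it reversed CRNDE (-0.32), CYTOR (-0.20), IRX5 (-0.61), DLEU1 (-0.43) and MIR4435-2HG (-0.72), in the baseline DANCR (-0.076), and in mouse Pvt1 in Neuro2a (-0.68) and HippCulture (-0.12). For PVT1 in HepG2, near no change, the sign also turned with DESeq2's size factors (-0.044), DESeq2's test (-0.046), no filter (-0.021) and at least 10 counts in every sample (-0.26), and it ranged from -0.15 to 0.28 when a sample was left out. MIR4435-2HG in HEK293 turned with at least 10 counts in every sample (-0.070) and ranged from -0.037 to 0.11 without a sample, IRX5 from -0.22 to 0.42, and the CYTOR interaction from -0.22 to 0.072. The counts of interaction calls (812 lower and 519 higher in HepG2) became 1244 and 335 with no filter and 522 and 268 with at least 10 counts in every sample. They became 1445 and 2086 with the replicate block, 899 higher with DESeq2's test, and 500 to 895 lower and 236 to 1034 higher without a sample. The most calls came without irradiated HEK293 replicate 1. At least 10 counts in every sample left 5384 lower and 5468 higher genes in the baseline. With that filter CYTOR in HEK293 (adjusted p = 0.0624) and GABPB1 in HepG2 (0.17, adjusted p = 0.091) missed the threshold, and TRIM13 in HepG2 (-0.41, adjusted p = 7.3e-04) and HULC (adjusted p = 0.0163) and LINC-PINT (adjusted p = 0.0379) in HEK293 passed it. CRNDE in HEK293 passed it with DESeq2's size factors (adjusted p = 0.0495) and with no filter (0.0417), TRIM13 in HepG2 with DESeq2's size factors (0.0308) and the DANCR interaction with DESeq2's test (0.0262). The replicate block turned the calls of HULC, CRNDE, LINC-PINT and DLEU1 in HEK293, of DANCR in the interaction and of DANCR in the baseline (adjusted p = 0.0589), and no other call of the 84 results. The causes were not tested. HULC in HEK293 rests on 15 to 44 counts a sample.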

Other observations

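Counterparts of 5 members with the same symbol were counted in mouse cells, the neuroblastoma line Neuro2a and cultured hippocampal neurons (HippCulture), and Cytor and Gabpb1os were not found among the symbols. In Neuro2a, Dancr rose from 5.28 ± 0.324 to 16.7 ± 2.52 TMM-scaled CPM (SD, n = 3 each), a log2 difference of 1.66 (edgeR, adjusted p = 8.1e-07). Crnde (1.23, adjusted p = 2.0e-06) and Pvt1 (0.52, adjusted p = 0.0088) rose as well, while Dleu2 fell from 20.1 ± 4.07 to 5.31 ± 0.761 (-1.92, adjusted p = 1.4e-06) and Lncpint fell (-0.75, adjusted p = 7.6e-04). In HippCulture Dancr (1.08, adjusted p = 0.0018) and Pvt1 (0.43, adjusted p = 0.0134) rose and Dleu2 fell (-0.65, adjusted p = 0.0104). Crnde (0.86, adjusted p = 0.171), with 3 to 8 counts, and Lncpint (-0.33, adjusted p = 0.199) were not called there. Without single samples, Pvt1 kept its call in 5 of 6 fits in Neuro2a and 4 of 6 in HippCulture, and Dleu2 in 4 of 6 in HippCulture. With library sizes alone, Crnde in Neuro2a (0.035, adjusted p = 0.821) and Dancr in HippCulture (0.55, adjusted p = 0.127) lost the call, Pvt1 turned negative in both, and Lncpint in HippCulture became a called decrease (-0.87, adjusted p = 0.003). Pvt1 in HippCulture also missed the threshold in DESeq2's test (adjusted p = 0.0525).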
